A study of Mus musculus with 16 samples.

Results

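Calcineurin, calmodulin and the transcription factor families NFAT and MEF2 were followed here through 9 genes, in the gastrocnemius muscle of mice on a high-fat diet with rosiglitazone. The genes were Dscr1 (now named Rcan1), Ppp3ca, Ppp3cb, Ppp3r1, Nfatc1, Calm4, Mef2a, Mef2c and Mef2d, out of 27745 gene names on the array. They were chosen by their place in this pathway with measured values of the same diet comparison in view, so their diet differences are given as a description, with no test. Every probe carrying 1 of these gene names was taken, which gave 22 probes, of which 21 passed the filter on dim signals and covered all 9 genes.

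Both groups were adult male C57BL/6N mice that began a corn oil-based high-fat diet (cHF, 35% lipid by weight) at 3 months of age and stayed on it for 8 weeks. The 8 cHF+ROSI mice received rosiglitazone, a drug that activates the nuclear receptor PPARγ, with 10 mg in each kg of diet. The 8 cHF+F+ROSI mice received the same dose, and a concentrate of n-3 LC-PUFA (46% DHA and 14% EPA) replaced 15% of their dietary lipids. All mice were fasted for 10 h by day, re-fed a standard chow overnight and killed in the morning, and no group without rosiglitazone was among these samples. The mice lived in pairs, and the labels do not name cages, so mice of a cage cannot be identified.

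Calcineurin is a phosphatase that is switched on by calcium-loaded calmodulin. It consists of a catalytic subunit, encoded by Ppp3ca, Ppp3cb or Ppp3cc, and a calcium-binding regulatory subunit, encoded by genes such as Ppp3r1. Active calcineurin removes phosphates from NFAT factors such as Nfatc1, which then enter the nucleus, and NFAT acts there together with MEF2 factors on genes of slow, oxidative muscle fibres. Dscr1 binds calcineurin and restrains it, and its inner promoter is a classic NFAT target, which makes its RNA a common readout of calcineurin activity. Calm4 encodes a calmodulin-like protein best known from the epidermis.

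The promoters of Dscr1 and Calm4 are shown because the probes of these 2 genes had the largest differences among the 9 over all 16 arrays. RefSeq lists starts of Rcan1 at the front of the gene and inside it, and the 250 bases before each start are printed 5′ to 3′ on the gene's strand (build GRCm38.p6, chr16:92466170-92466419 for the outer and chr16:92400079-92400328 for the inner start, both on the minus strand), followed by Calm4 (chr13:3837507-3837756, plus strand). Capitals mark the NFAT core motif GGAAA or its reverse complement TTTCC.
Rcan1, outer start: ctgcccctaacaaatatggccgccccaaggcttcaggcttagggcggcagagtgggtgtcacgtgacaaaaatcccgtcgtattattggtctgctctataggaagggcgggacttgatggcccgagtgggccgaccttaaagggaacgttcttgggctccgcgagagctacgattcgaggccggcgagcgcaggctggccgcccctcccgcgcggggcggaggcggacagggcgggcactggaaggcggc
Rcan1, inner start: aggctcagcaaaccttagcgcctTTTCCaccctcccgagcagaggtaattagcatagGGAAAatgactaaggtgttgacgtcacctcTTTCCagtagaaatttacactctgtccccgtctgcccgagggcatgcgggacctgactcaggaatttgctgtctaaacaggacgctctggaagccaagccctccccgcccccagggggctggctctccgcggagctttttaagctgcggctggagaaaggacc
Calm4: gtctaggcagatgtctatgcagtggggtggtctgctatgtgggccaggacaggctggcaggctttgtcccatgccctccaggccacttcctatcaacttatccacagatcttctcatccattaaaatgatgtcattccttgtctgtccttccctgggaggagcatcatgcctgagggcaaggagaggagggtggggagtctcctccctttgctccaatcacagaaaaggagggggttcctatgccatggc
The inner window of Rcan1 held 3 copies of the motif, 1 forward and 2 reverse. The outer window and the window of Calm4 held 0. Among the other members, a window of Mef2c held 5 copies, that of Ppp3cb held 3 and that of Mef2d held 1. Of 32851 windows of this length in the RefSeq table, 55.6% held the motif at least once and 6.39% held 3 or more. The table matched 7 of the 9 genes with 10 windows (Ppp3ca and Nfatc1 were not matched), among which 4 held the motif and 0 held a MEF2 box on either strand (present in 2.92% of all windows). Both Dscr1 probes are assigned by the files to the transcripts of either start, so the measurements below do not separate them.

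Each mouse was measured on 1 two-color array as log2 of its Cy5 signal over the Cy3 signal of a muscle reference pool shared by all 16 arrays, with the dyes never swapped. The pool, as the labels describe it, also held RNA of other diets and of a higher rosiglitazone dose. Per array, the median Cy5 signal was 2.33 to 3.64 times background for cHF+ROSI and 2.98 to 3.46 times for cHF+F+ROSI, and the Cy3 signal was weaker (1.78 to 2.02 times). The array of cHF+ROSI replicate 1 was the dimmest in Cy5, at 2.33. The arrays lay on 4 slides with 2 arrays of each group on every slide, where cHF+ROSI mice took positions 1 and 3 and cHF+F+ROSI mice positions 2 and 4, so position and diet cannot be told apart. Of 19398 probes tested by limma, 16 (0.0825%) passed an adjusted p of 0.05, 2010 (10.4%) reached an unadjusted p of 0.05 and 31 (0.16%) had groups that did not overlap. Fast fibre markers were well above background in all 16 mice, and their mean log2 ratio lay between 0.23 and 0.64 in both groups together.

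Dscr1, the calcineurin inhibitor, was lower in the cHF+F+ROSI mice. At the brighter probe (A_52_P617327, chr16:92281377-92281436, build mm8), the log2 ratios of the cHF+ROSI mice in order of replicate number were -0.08, -0.03, -0.24, 0.69, 0.40, 0.62, 0.45 and -0.41. The cHF+F+ROSI mice had -0.42, 0.62, -0.52, -0.62, -0.96, -0.64, -0.53 and -0.31. All cHF+F+ROSI mice other than replicate 2 lay below 0, 6 of 8 lay below every cHF+ROSI mouse, and replicate 2 lay among the highest cHF+ROSI mice. The means of cHF+ROSI and cHF+F+ROSI were 0.17 ± 0.42 and -0.42 ± 0.46 (SD, n = 8 each), a log2 difference of -0.60 (SE 0.20), or 0.661 times the cHF+ROSI level. Without cHF+F+ROSI replicate 2 the log2 difference was -0.74 (SE 0.16).

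The dimmer Dscr1 probe (A_51_P182116, whose ends lie at chr16:92284857-92286153 in mm8, across an intron) gave a smaller log2 difference in the same direction, -0.28 (SE 0.10). Its values were -0.69, -0.26, -0.28, -0.10, -0.10, 0.05, 0.04 and -0.55 in the cHF+ROSI mice. In the cHF+F+ROSI mice they were -0.44, -0.16, -0.47, -0.67, -0.71, -0.59, -0.55 and -0.55. Replicate 2 was again the highest cHF+F+ROSI mouse, while the lowest cHF+ROSI mouse was replicate 1, the dim array. After the group means were taken out, the pair of Dscr1 probes followed each other across the 16 mice with r = 0.83, and with r = 0.80 without cHF+F+ROSI replicate 2, as a description of 2 spots on the same arrays.

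**Figure D1:**
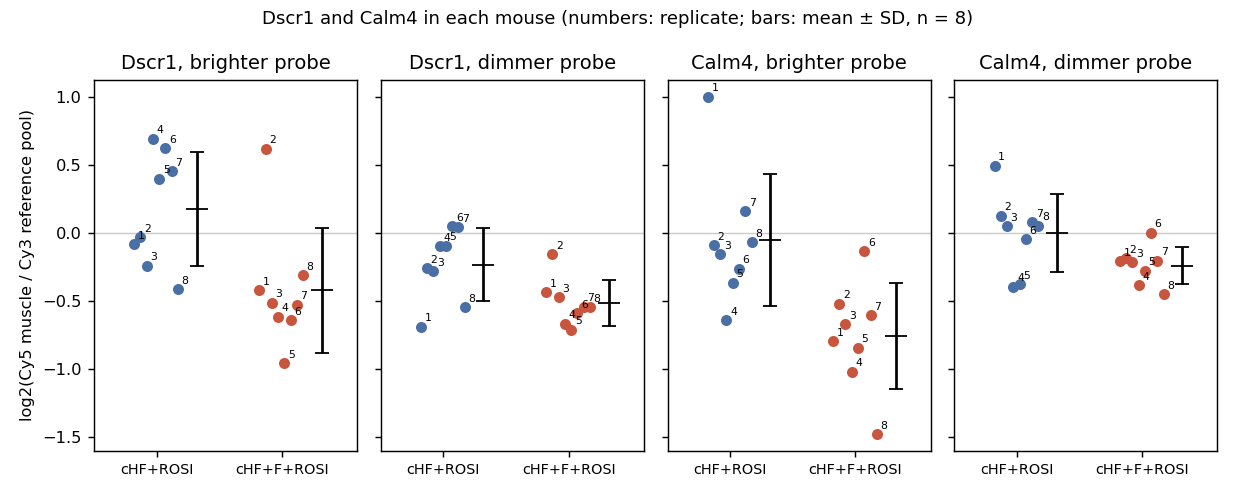
Log2 ratio of muscle Cy5 over reference Cy3 (vertical axis) for both probes of Dscr1 and of Calm4 in each mouse, by group (horizontal axis); points are mice with their replicate number, and bars are the mean ± SD of 8 mice. At the brighter Dscr1 probe replicate 2 of the cHF+F+ROSI group stands at 0.62 above the other mice of its group, and at the brighter Calm4 probe replicate 1 of the cHF+ROSI group stands at 1.00.

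Calm4, the calmodulin-like gene, had a log2 difference slightly larger than that of Dscr1 over all 16 arrays. This order turned in several alternatives, among them array quality weights, the planned background fit and some runs with a single array left out. Without cHF+ROSI replicate 1, for example, the difference was -0.55 for Calm4 and -0.63 for Dscr1. At its brighter probe (A_52_P576720, chr13:3837682-3837741, mm8), the cHF+ROSI mice had log2 ratios of 1.00, -0.09, -0.16, -0.64, -0.37, -0.27, 0.16 and -0.07. The cHF+F+ROSI mice had -0.80, -0.52, -0.67, -1.02, -0.85, -0.14, -0.61 and -1.48. All 8 cHF+F+ROSI mice lay below the cHF+ROSI mean and 5 of them below every cHF+ROSI mouse, but replicate 6 at -0.14 lay well within the other group. The means were -0.05 ± 0.49 and -0.76 ± 0.39 (SD, n = 8 each), a log2 difference of -0.71 (SE 0.20), or 0.613 times the cHF+ROSI level. Calm4 was also in the list of regulated genes that the study drew from these samples.

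The dimmer Calm4 probe (A_51_P460611, chr13:3837330-3837389, mm8) was close to background, with a Cy5 signal of 1.90 to 5.16 times background and 15 of 16 arrays well above it. Its log2 difference was -0.24 (SE 0.10), and the values followed those of the brighter probe with r = 0.90 within groups over the 16 mice. This difference moved with the processing. It was -1.07 (SE 0.34) from the processed signals of the scanner software, -0.61 (SE 0.19) in the authors' table and -0.65 (SE 0.20) with median centring, but -0.12 (SE 0.09) with array quality weights and -0.18 (SE 0.08) with the background model fitted on every spot, as had been planned. The brighter probe gave -1.07 (SE 0.30) from the processed signals and -0.85 (SE 0.23) in the authors' table, and -0.51 (SE 0.15) and -0.52 (SE 0.17) with the weights and the planned fit.

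Keratinocyte markers were examined beside Calm4 because of its known expression in skin. Of 11 markers, 9 passed the filter, and Krt1 and Dsp did not. The mean log2 ratio of these 9 was 0.81 in cHF+ROSI replicate 1 and between -1.08 and -0.89 in the other cHF+ROSI mice, while the cHF+F+ROSI mice lay between -1.06 and -0.46. Of the 9 markers, 7 were higher on that array than on every other. Krt14 was at 1.07 on that array against -1.13 to -0.53 on the other 15, Krt5 at 1.20 against -2.03 to -0.20, and Lor, the main protein of the cornified envelope, at 1.62 against -3.88 to -1.18. The other two did not stand out there: Trp63, a defining factor of the basal layer, was at 0.31 against 0.06 to 0.57, and Sfn at 0.22 against 0.06 to 0.41. That array also held the highest Calm4 value. Without it the Calm4 log2 difference was -0.55 (SE 0.16) at the brighter probe and -0.17 at the dimmer probe. As for every gene measured here in whole muscle, fewer cells of a type and less RNA per cell cannot be told apart.

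The 3 calcineurin subunit genes among the 9 differed little between the diets. Ppp3ca, the catalytic subunit α, was measured by 1 bright probe (chr3:136872888-136872948, mm8), with a lowest, median and highest log2 ratio of -0.39, -0.05 and 0.14 in the cHF+ROSI mice and of -0.33, -0.12 and 0.29 in the cHF+F+ROSI mice. The groups overlapped throughout, and the log2 difference was -0.03 (SE 0.08). The 4 probes of Ppp3cb, the catalytic subunit β, had log2 differences of -0.06 (SE 0.10), 0.05 (SE 0.09), 0.00 (SE 0.05) and -0.02 (SE 0.06). The brightest of them (A_52_P306396, chr14:19288595-19288654, mm8) varied least among mice of all 9 genes' probes, with SDs of 0.10 and 0.09. Its pattern across the 16 mice went with that of 1 other probe (r = 0.68) and against that of another (r = -0.65), so the probes of this gene did not report the same variation.

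Ppp3r1, the regulatory subunit, was measured by 3 probes. The brightest (A_52_P474379, chr11:17100321-17100380, mm8) had values of 0.49, 0.65, 0.53, 0.54, 0.46, 0.30, 0.40 and 0.65 in the cHF+ROSI mice. In the cHF+F+ROSI mice they were 0.25, 0.25, 0.31, 0.44, 0.34, 0.44, 0.46 and 0.38. Every cHF+F+ROSI mouse lay below the cHF+ROSI mean and the groups overlapped between 0.30 and 0.46, with a log2 difference of -0.14 (SE 0.05). The other probes of the gene had 0.05 (SE 0.07) and -0.04 (SE 0.06), and whether they differ from the brightest was not tested. With median centring the brightest probe gave -0.26 (SE 0.12), and in Cy5 alone -0.39 (SE 0.25). With the planned background fit it gave a smaller difference, -0.10 (SE 0.09).

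Nfatc1, the NFAT factor of slow fibres, was measured by 2 probes made for different transcripts, with log2 differences of 0.09 (SE 0.13) at the brighter and -0.05 (SE 0.07) at the dimmer probe. In Cy3, which held the shared pool, the brighter probe also differed between the groups' arrays, by -0.14 (SE 0.07). At the brighter probe the cHF+ROSI mice ranged from -0.99 to -0.33 (median -0.59). The cHF+F+ROSI mice ranged from -0.84 to 0.22 (median -0.65), where the value of 0.22 belonged to replicate 2 and the next highest was -0.25. Without replicate 2 the log2 difference at this probe was -0.02.

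The MEF2 factors, which bind calcium-responsive enhancers of muscle genes, also showed small differences. Mef2a had log2 differences of 0.13 (SE 0.06) at its brightest probe (A_52_P175157, chr7:67110637-67110696, mm8) and of 0.05 (SE 0.06) and 0.01 (SE 0.07) at the others. At the brightest probe the cHF+ROSI mice lay between 0.16 and 0.48 (median 0.38) and the cHF+F+ROSI mice between 0.23 and 0.60 (median 0.50), and 7 of 8 cHF+F+ROSI mice were above the cHF+ROSI mean. Mef2d had differences of 0.00 (SE 0.08), -0.12 (SE 0.06) and -0.06 (SE 0.06) at its 3 probes, of which the brightest was A_51_P394676 (chr3:88257782-88257841, mm8). Without cHF+F+ROSI replicate 2 the second was -0.069, and without cHF+F+ROSI replicate 1 the third was -0.11. The third had 6 of 8 cHF+F+ROSI mice below every cHF+ROSI mouse but replicate 1 at 0.17 above all of them.

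Mef2c had a log2 difference of -0.01 (SE 0.12) at the probe that passed the filter (A_51_P135802, chr13:84141092-84141151, mm8). The cHF+ROSI mice lay between -1.58 and -0.51 and the cHF+F+ROSI mice between -1.45 and -0.97, and the value of -0.51 came from replicate 1, the dim array. The second Mef2c probe (A_52_P282110, chr13:84055461-84055520, mm8) was well above background on 0 of 16 arrays in either channel. It has only a bound there, and its log2 difference taken without the filter was 0.04 (SE 0.06).

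Of the 22 probes, 14 had a negative and 8 a positive difference, and 0 had groups that did not overlap, beside 0.16% of all probes, from which nothing is read because the genes were chosen on this comparison. For 16 of them the difference was within 2 standard errors. The 17 measured probes of the 7 genes other than Dscr1 and Calm4 had log2 differences between -0.14 and 0.13 (median -0.01), with standard errors of 0.05 to 0.13. With each array left out in turn they lay between -0.17 and 0.17, and several changed sign. The median over all 19398 probes was 0.00.

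**Figure D2:**
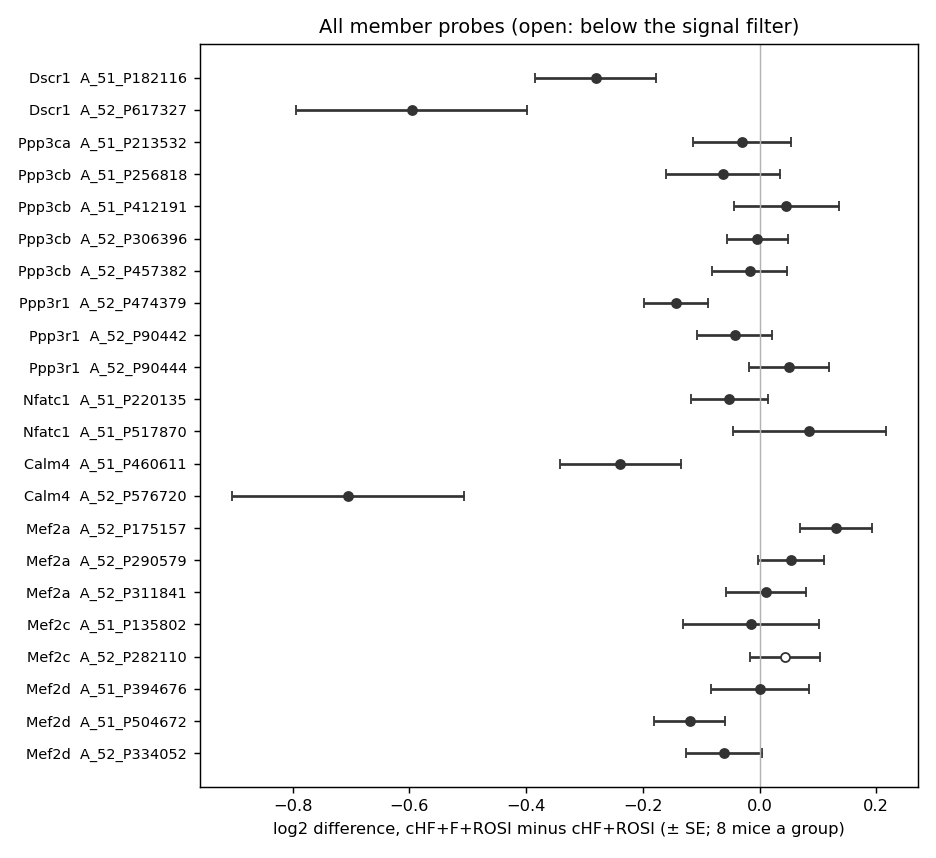
Log2 difference, cHF+F+ROSI minus cHF+ROSI (horizontal axis), with its standard error for each of the 22 probes of the 9 genes (vertical axis), 8 mice a group. The probes of Dscr1 (-0.60 and -0.28) and Calm4 (-0.71 and -0.24) stand to the left of the others, which lie between -0.14 and 0.13; the open circle is the Mef2c probe below the filter.

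The log2 differences of Dscr1 and Calm4 were also taken within each slide, and whether they differ between slides was not tested. Within slides 1 to 4, each with 2 mice a group, the log2 difference of the brighter Dscr1 probe was 0.11, -1.01, -1.10 and -0.39, and that of the dimmer probe was 0.16, -0.50, -0.54 and -0.24. Slide 1 held cHF+F+ROSI replicate 2. For the brighter Calm4 probe the values were -1.05, -0.53, -0.05 and -1.18, and slide 1 held cHF+ROSI replicate 1. With slide as a block the standard error was 0.21 for Dscr1 and 0.18 for Calm4 at the brighter probes. In Cy3, the shared pool, the log2 difference between the groups' arrays was 0.02 (SE 0.04) for Dscr1 and -0.02 (SE 0.04) for Calm4 at these probes. At the dimmer probes the Cy3 difference was 0.09 (SE 0.05) for Dscr1 and -0.06 (SE 0.03) for Calm4. In Cy5 alone the dimmer probes had -0.20 (SE 0.15) for Dscr1 and -0.68 (SE 0.18) for Calm4.

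**Figure D3:**
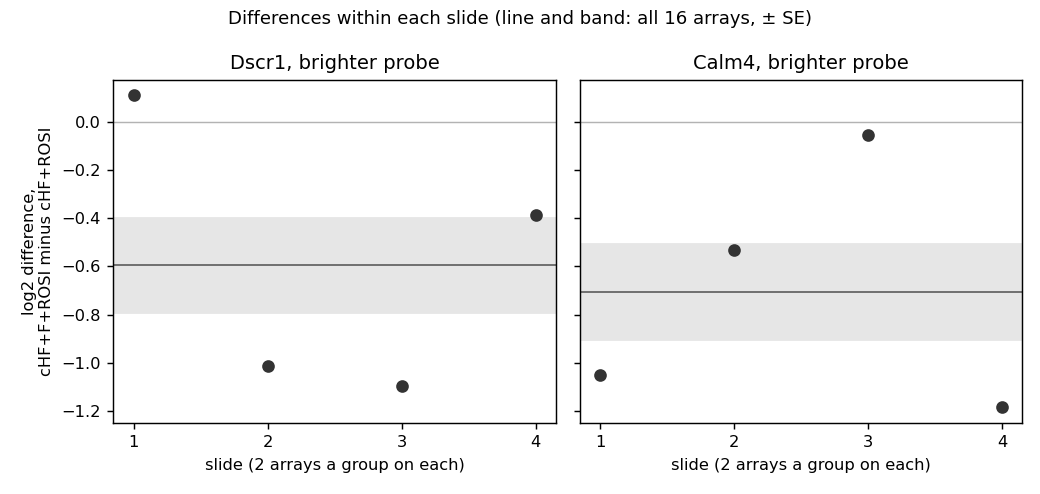
Log2 difference, cHF+F+ROSI minus cHF+ROSI (vertical axis), at the brighter probes of Dscr1 and Calm4 within each of the 4 slides (horizontal axis, 2 arrays a group on each); the line and band give the difference over all 16 arrays ± SE. Dscr1 was at 0.11 on slide 1 and between -1.10 and -0.39 on the others, and Calm4 ranged from -1.18 to -0.05.

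Replicate 2 of the cHF+F+ROSI group stood apart in several of the 9 genes and in slow fibre and immediate early markers, while the mean of its fast fibre markers, 0.38, lay within the 0.33 to 0.55 of its group. The mean log2 ratio of its slow fibre markers (Myh7, Tnni1, Tnnc1 and 6 others) was -2.31, against -0.66 to 0.23 in the other cHF+F+ROSI mice. The mean of its immediate early markers (Fos, Egr1, Atf3 and 7 others), genes that are switched on within minutes of a stimulus, was 1.25, against -0.33 to 0.15. Over the group, slow fibre markers had a median log2 difference of -0.43 and immediate early markers of -0.21. At an adjusted or an unadjusted p of 0.05 limma called 0 of 9 and 0 of 10. Of all probes it called 0.0825% with and 10.4% without adjustment. The part of this mouse's slow fibre and immediate early levels in the Dscr1 difference was not tested, and the difference was larger without the mouse.

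On that array the spots of Mef2c and Ppp3r1 were also dim in both colors. The log2 net signal of Mef2c was 12.06 in Cy5 and 10.81 in Cy3, against 12.85 to 13.67 and 11.85 to 12.28 on the other 15 arrays. For Ppp3r1 it was 7.29 in Cy5 and 5.44 in Cy3, against 8.85 to 10.57 and 6.90 to 7.47. The ratio of Mef2c on that array, -0.97, lay within the range of the others. For Nfatc1 at its brighter probe, where the ratio in replicate 2 was 0.22, the Cy3 signal was low (8.84, against 9.25 to 9.83). The Cy5 signal of 11.23 lay within the 10.22 to 11.78 of the other arrays. At the dimmer Nfatc1 probe replicate 2 was also the highest of its group, at 0.15 with the next at -0.13. The cause of these values was not tested. For Dscr1 both channels of that array lay within the range of the others.

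Whether these genes followed fibre type or other markers from mouse to mouse was tested within each group, where the diet comparison plays no part, as a family of 8 relations with exact permutation of pairings (two-sided) and Benjamini-Hochberg adjustment. After adjustment 0 of the 8 passed. In the cHF+F+ROSI mice Dscr1 ran against the slow fibre mean (Pearson r = -0.85, exact permutation p = 0.0518, adjusted 0.207; Spearman rho = -0.36, exact permutation p = 0.389, adjusted 0.924). It ran with the immediate early mean (r = 0.82, exact permutation p = 0.0941, adjusted 0.251; rho = 0.31, exact permutation p = 0.462, adjusted 0.924). Without the 2 mice farthest from the median of the markers (replicates 2 and 3), r was -0.22 and -0.52, so both relations rest on those mice. In the cHF+ROSI mice the same relations had r = 0.16 (exact permutation p = 0.702, adjusted 0.832; rho = 0.00, exact permutation p = 1) and r = -0.06 (exact permutation p = 0.897, adjusted 0.897; rho = 0.17, exact permutation p = 0.703, adjusted 0.938). Without the 2 farthest mice they were -0.04 (without replicates 3 and 8) and 0.66 (without replicates 1 and 2), so both turned sign.

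Mef2c had r = -0.27 with the slow fibre mean in the cHF+F+ROSI mice (exact permutation p = 0.531, adjusted 0.832; rho = -0.19, exact permutation p = 0.665, adjusted 0.938) and r = 0.21 in the cHF+ROSI mice (exact permutation p = 0.625, adjusted 0.832; rho = 0.02, exact permutation p = 0.977). Without the 2 farthest mice these were 0.10 (without replicates 2 and 3) and 0.16 (without replicates 3 and 8). In Cy5 alone the first of these turned to r = 0.96 (exact permutation p = 0.00432, adjusted 0.0345), which includes the dim spot described above, and without replicates 2 and 3 it was 0.40. Calm4 ran with the keratinocyte mean in the cHF+ROSI mice (r = 0.88, exact permutation p = 0.0347, adjusted 0.207; rho = 0.45, exact permutation p = 0.268, adjusted 0.924). Without replicates 1 and 2 r was 0.50. In the cHF+F+ROSI mice it was 0.13 (exact permutation p = 0.728, adjusted 0.832; rho = 0.31, exact permutation p = 0.462, adjusted 0.924), and -0.51 without replicates 2 and 7.

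**Figure D4:**
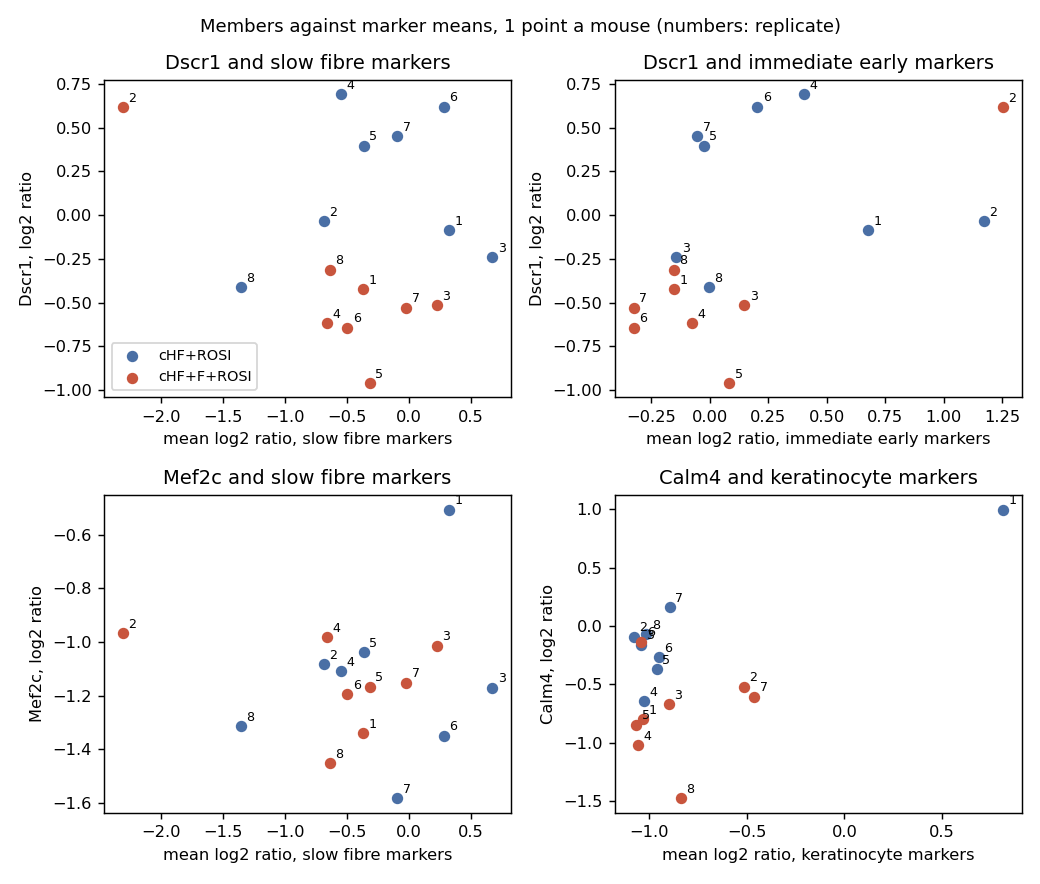
Log2 ratio of Dscr1, Mef2c and Calm4 at their brightest probes (vertical axes) against the mean log2 ratio of slow fibre, immediate early or keratinocyte markers (horizontal axes), with 1 point for each of the 8 mice a group and its replicate number. Replicate 2 of the cHF+F+ROSI group lies alone at a slow fibre mean of -2.31, and replicate 1 of the cHF+ROSI group lies alone at a keratinocyte mean of 0.81.

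The genes whose pattern was most like that of Dscr1 were found over the 16 mice after the group means were taken out, among 19296 probes with a value on every array. They were Ripk1, a kinase of cell death and inflammation signalling (r = 0.89), Tnfrsf12a, the receptor of the cytokine TWEAK (r = 0.88), Dnajb4, a co-chaperone (r = 0.88), Tubb6, a tubulin (r = 0.86), Hspa1a, an inducible heat shock protein (r = 0.85), and Enah, an actin regulator (r = 0.84). Without cHF+F+ROSI replicate 2 the same genes, which were picked with that mouse included, had r of 0.68 to 0.78. These r values are the top of 19296, and how high the top would be among unrelated probes was not tested.

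The other genes of the pathway were taken from 7 lists that leave out the 9 genes. Of 54 genes, 52 had a probe and 45 passed the filter. By limma 0 of the 45 passed an adjusted p of 0.05 (0.0825% of all probes did), and 8 reached an unadjusted p of 0.05, with 4 higher and 4 lower after n-3 LC-PUFA, which is 17.8% beside the 10.4% of all probes. With the methods' t-test 0 and 7 genes did so. Hdac7 and Ppp3cc each missed the unadjusted p of 0.05 in 19 of 30 alternatives, Slc2a4 in 4, Calm2 and Jun in 2, Chp1 and Calml4 in 1 and Csrp3 in 0. The median log2 difference of the 45 was -0.04. No list was tested as a whole.

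Among regulators and anchors of calcineurin, 11 of 14 genes were measured. Of these, 3 reached an unadjusted p of 0.05 (10.4% of all probes did), with 2 higher and 1 lower. Csrp3, muscle LIM protein, which tethers calcineurin at the sarcomere, had a log2 difference of -0.93 (SE 0.27, limma adjusted p = 0.211), lower than the cHF+ROSI mean in 7 of 8 cHF+F+ROSI mice. It too is in the study's own list from these samples. Chp1, a calcineurin B-like protein that can inhibit calcineurin, had 0.17 (SE 0.06, limma adjusted p = 0.312) and Ppp3cc, the γ catalytic subunit, had 0.09 (SE 0.04, limma adjusted p = 0.481), each higher than the cHF+ROSI mean in 8 of 8 mice. Myoz1, the calcineurin-binding calsarcin of fast fibres, had 0.02 (SE 0.09). Its slow fibre counterpart Myoz2 had -0.52 (SE 0.29, limma adjusted p = 0.559), and the Dscr1 relatives Rcan2 and Rcan3 had 0.06 (SE 0.13) and 0.02 (SE 0.04).

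Calm2 and Calm3 encode calmodulin and were bright in all mice. Calm2 had a log2 difference of -0.23 (SE 0.08, limma adjusted p = 0.282), with 7 of 8 cHF+F+ROSI mice below the cHF+ROSI mean, and Calm3 had 0.04 (SE 0.06). Calml4, a calmodulin-like gene, had 0.27 (SE 0.10, limma adjusted p = 0.351), and Calml3 did not pass the filter. Of the calmodulin-dependent kinases 8 of 10 were measured, and their log2 differences lay between -0.20 and 0.12. Below an unadjusted p of 0.05 there were 0 of them, beside 10.4% of all probes. Camk2g had 0.10 (SE 0.07), Camk2a had -0.08 (SE 0.10) and Camk2b, a form prominent in muscle, had -0.10 (SE 0.06).

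The other NFAT factors and the kinases that send NFAT out of the nucleus had small differences. Nfatc3, Nfatc4 and Nfat5 had log2 differences of -0.05 (SE 0.11), -0.10 (SE 0.07) and -0.05 (SE 0.06), and Nfatc2 did not pass the filter. The kinases Csnk1a1, Dyrk1a, Gsk3a and Gsk3b lay between -0.08 and 0.01. Of the MEF2 partners and class II histone deacetylases, which hold MEF2 targets silent, 7 of 7 were measured. Hdac7, a form best known from endothelium and thymus, had -0.14 (SE 0.07, limma adjusted p = 0.482). Hdac4 and Hdac5, the forms studied most in muscle, had -0.05 (SE 0.07) and -0.08 (SE 0.07). Beside Hdac7, the endothelial markers Pecam1, Cdh5, Kdr and Tek had log2 differences of -0.28 to -0.10. At 0.05 limma called 4 of 4 of these markers without adjustment of p (10.4% of all probes) and 0 of 4 with it (0.0825%). Their mean log2 ratio was -0.10 ± 0.10 in the cHF+ROSI mice and -0.28 ± 0.10 in the cHF+F+ROSI mice (SD, n = 8 each), and its part in the difference of Hdac7, or of any other gene here, was not tested.

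Of 9 genes known as outputs of calcineurin, NFAT or MEF2, 8 were measured. An unadjusted p of 0.05 was reached by 2 of them (and by 10.4% of all probes), with 1 higher and 1 lower. Slc2a4, the insulin-responsive glucose transporter GLUT4 and a MEF2 target, had a log2 difference of 0.22 (SE 0.08, limma adjusted p = 0.371), with 7 of 8 cHF+F+ROSI mice above the cHF+ROSI mean. Jun, an immediate early gene with MEF2 sites in its promoter, had -0.34 (SE 0.14, limma adjusted p = 0.409), with 7 of 8 below it. Mb, myoglobin, had -0.27 (SE 0.17), Ppargc1a had 0.19 (SE 0.14), Klf2 had -0.55 (SE 0.29) and Nr4a1 had -0.04 (SE 0.19), each with an unadjusted p above 0.05.

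**Figure D5:**
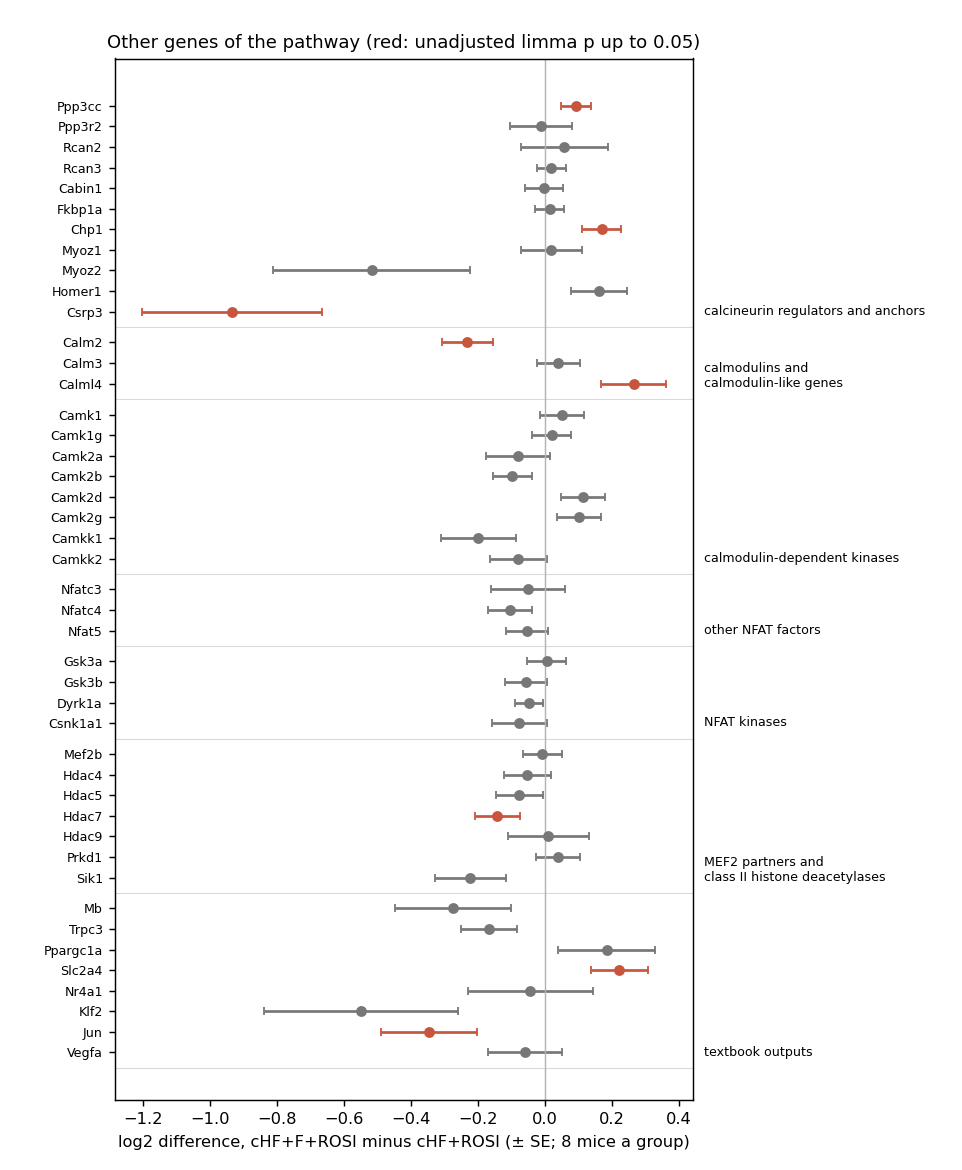
Log2 difference, cHF+F+ROSI minus cHF+ROSI (horizontal axis), with its standard error for the measured genes of the 7 lists (vertical axis, grouped by list; 1 of the 45 is not shown), 8 mice a group. Red marks the 8 genes with an unadjusted limma p of up to 0.05, among which Csrp3 at -0.93 lies farthest from 0; 0 genes passed an adjusted p of 0.05.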

How the data were processed

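Gastrocnemius RNA of each mouse was hybridised in Cy5 against a Cy3 pool on 16 Agilent arrays. The authors deposited scanner output with spot intensities and 0 or 1 flags (Feature Extraction 10.5.1.1 per the file headers, 10.5.5.1 per the labels). Their table of normalized log2 values, deposited by the authors for 24377 probes, gives cHF+F+ROSI arrays no replicate number and served as an alternative. Probe coordinates are those of the files (mm8).

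Median signals were corrected by normexp (offset 50). Probes whose mean signal was 2 or more times background in Cy5 and in Cy3 were kept, followed by loess within each array. Control and outlier spots were left out after the normexp step. The plan was to fit normexp on all spots. Up to 22 of 45018 spots an array lay below their local background, and that fit compressed weak probes (the spread of log2 ratios of the dimmest probes was 0.0106 on cHF+ROSI replicate 1, against 0.203 without those spots). The parameters were therefore fitted on spots at or above background, a choice made after the data were seen; the planned fit called 3 of all probes in place of 16. Groups were compared with limma 3.58.1 (R 4.3.3; lmFit, eBayes), with p-values of 19398 probes adjusted by Benjamini-Hochberg, and the steps were tested on simulated data.

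List genes were matched by gene name, older name or RefSeq accession, using the brightest probe; 1 of them enters the counts but is not reported here. The genes described, the lists and the tests were chosen with earlier results of these data known. Named were every probe of the 9 genes, list genes reaching an unadjusted p of 0.05, the brightest of each list and the 6 genes most like Dscr1; further list genes (such as Myoz2, Klf2, Ppargc1a, Rcan2 and Rcan3) were named after their values were seen. Cages are not given, so p-values measure only the spread between these mice. Replicate numbers did not pair the mice (r of same-numbered arrays was -0.26 to 0.34).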

Additional observations from a re-analysis of the deposited data

Results flagged for a closer look

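In 9 of 44 groups of 8 values at the 22 probes, 1 mouse lay far from the rest of its group by Dixon's ratio. Chance gives about 1 in 20 independent groups. The 22 probes share the same arrays and some share a gene, so these groups are not independent and no excess is read. Of the 9, 5 fell on cHF+F+ROSI replicate 2. In that mouse Dscr1 (A_52_P617327) was at 0.62, where the next mouse was at -0.31, Ppp3ca (A_51_P213532) was at 0.29 with the next at -0.04, and Nfatc1 (A_51_P220135) was at 0.15 with the next at -0.13. Mef2a (A_52_P175157) was at 0.23 with the next at 0.45, and Mef2d (A_51_P504672) was at -0.93 with the next at -0.59. Replicate 2 of the cHF+ROSI group was high for Ppp3r1 (A_52_P90444, 0.50 with the next at 0.19) and for the Mef2c probe not well above background (A_52_P282110, 0.36 with the next at 0.14). Replicate 1 of the cHF+ROSI group was low for Ppp3cb (A_51_P412191, -0.155 with the next at 0.37), and replicate 7 was low for Mef2d (A_51_P394676, -0.37 with the next at 0.07). All are log2 ratios, and the cause of these values was not tested.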

How the results depend on the processing

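The log2 difference kept its sign at the brighter probes of Dscr1 and Calm4 in every alternative run other than within slide 1 for Dscr1. With each array left out it ranged from -0.74 to -0.52 for Dscr1 and from -0.79 to -0.55 for Calm4. Within single slides, Dscr1 was 0.11 on slide 1 and -1.10 on slide 3, and Calm4 was -0.054 on slide 3 and -1.18 on slide 4. Some other probes whose difference exceeded 2 standard errors over all arrays also turned sign. These were the dimmer Dscr1 probe within slide 1 (0.16), and Ppp3r1 A_52_P474379 (0.069) and the dimmer Calm4 probe (0.11) within slide 3. Several probes within 2 standard errors turned as well, such as Nfatc1 A_51_P517870 (-0.24) and Ppp3cb A_51_P256818 (0.36) within slide 3. Among the list genes at an unadjusted p of 0.05, the sign turned within slide 3 for Calml4 (-0.10), within slides 2 and 3 for Slc2a4 (-0.04 and -0.02) and within slide 4 for Hdac7 (0.05). With the replicate block the Dscr1 and Calm4 differences stayed at -0.60 and -0.71, 0 pathway genes passed an adjusted p of 0.05, 7 reached an unadjusted p of 0.05 (Hdac7 and Ppp3cc no longer, Myoz2 in addition) and 6 of all probes passed. Without both arrays that stood apart (cHF+ROSI replicate 1 and cHF+F+ROSI replicate 2; chosen after seeing the data) the differences were -0.78 and -0.59. With normexp fitted on every spot (the planned fit, added here after seeing the data) they were -0.59 and -0.52.

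No pathway gene passed an adjusted p of 0.05 in limma under any alternative run, nor by the methods' t-test. With slide as a block, median centring or the planned fit Hdac7 alone no longer reached an unadjusted p of 0.05. At that p there were 4 in Cy5 alone and 6 to 11 with each array left out, against 8. Of all probes, 16 passed an adjusted p of 0.05 in limma, 9 with median centring, 8 in Cy5 alone, 10 in the authors' table, 7 by the methods' t-test, 144 with array quality weights, 3 with normexp fitted on every spot, 33 without both arrays that stood apart and 5 to 24 with each array left out (10 or fewer without cHF+ROSI replicate 3, 4 or 5 or cHF+F+ROSI replicate 3, 5 or 8). Mef2c and the slow fibre mean in the cHF+F+ROSI mice turned from r = -0.27 to 0.96 in Cy5 alone; its spot on replicate 2 was dim in both colors. The Cy3 signal of Calm4 was 4.40 times background at the brighter and 2.29 at the dimmer probe, and its part was not tested. The cause of the other changes was not tested either.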
